A study of Mus musculus with 72 samples.

Results

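Acaca, Acacb, Mlycd and Me1, 4 of the 20772 genes that could be named on the array, make, remove or work beside malonyl-CoA, and they are followed here through liver and intestine, across diet and time of day. They were taken by gene symbol, and for each the probe set with the highest mean over the arrays was used. They were selected on measured values, the diet differences of Acacb and Me1 in these same arrays, which ran in opposite directions in liver and intestine, so their diet differences are given as a description, without a test. All 4 genes passed the filter on low values in each tissue, which keeps the genes at or above the 40th percentile of the mean. Acacb passed it in intestine only through the ketogenic arrays, since its chow mean there (log2 6.28) lay below the threshold of 6.80.

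Malonyl-CoA is the building block of fatty acid synthesis and, at the same time, the inhibitor of carnitine palmitoyltransferase 1, which admits long-chain fatty acids to mitochondria. Acaca encodes the cytosolic acetyl-CoA carboxylase, whose malonyl-CoA feeds fatty acid synthase, while Acacb encodes the carboxylase of the mitochondrial outer membrane, whose malonyl-CoA restrains carnitine palmitoyltransferase 1. Mlycd encodes malonyl-CoA decarboxylase, which turns malonyl-CoA back into acetyl-CoA, and Me1 encodes the cytosolic malic enzyme, which makes pyruvate and the NADPH that fatty acid synthesis consumes.

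The study used male C57BL/6J mice, 8 weeks old at the start, in 12 h of light and 12 h of dark, fed either chow (spelled Norma Chow in the labels) or a ketogenic diet, rich in fat and poor in carbohydrate, freely for 4 weeks. RNA of liver and of intestine, labelled INTESTINE (IEC), was taken every 4 h, at zeitgeber times (ZT, counted in hours from lights on) 0, 4, 8, 12, 16 and 20, with 3 arrays for each of the 24 combinations of tissue, diet and time and 72 arrays in all. The labels give no genotype other than the strain, and a protocol text shared by all samples also mentions fructose gavage at 4 g/kg for 7 days and 30% sucrose in the water, without stating whether either applies here. They do not say that the 3 arrays of a group come from separate animals, so the p-values below reflect only how these samples scatter, which may be technical. Hepatocyte markers summed to intensities of 58045 to 69828 in liver against 4377 to 12923 in intestine, where Cps1, which intestine also expresses, had a median of 4400 on chow. Enterocyte markers summed to 42911 to 56704 in intestine against 4425 to 11430 in liver, as the tissue labels say. Array medians were 105 to 120 in liver and 107 to 121 in intestine. In intestine 3 ketogenic arrays stood apart (ZT0 replicate 1, ZT8 replicate 26 and, at ZT20, replicate 27, with a residual SD of 2.03, 1.55 and 1.59 times the tissue's median). In liver the clock time read from 12 clock genes was 12.5 h for chow ZT8 replicate 12 and 9 h for chow ZT12 replicate 17. Values without these arrays are given beside the differences and calls of the 4 genes that they touch.

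The promoter windows of Acacb and Me1, the pair that moved together, are shown first. Each line gives the 250 bases before a RefSeq transcript start in build GRCm38.p6, 5′ to 3′ on the gene's strand, with Acacb at chr5:114165268-114165517 on the plus strand and Me1 at chr9:86695915-86696164 on the minus strand. Capitals mark the CCAAT box (CCAAT, or ATTGG on the other strand) in Acacb and GC boxes (GGGCGG, or CCGCCC on the other strand) in Me1.
Acacb: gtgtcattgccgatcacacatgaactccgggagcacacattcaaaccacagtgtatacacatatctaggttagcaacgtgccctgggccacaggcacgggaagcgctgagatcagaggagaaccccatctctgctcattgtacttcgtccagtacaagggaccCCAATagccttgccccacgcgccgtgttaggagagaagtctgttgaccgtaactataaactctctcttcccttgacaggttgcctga
Me1: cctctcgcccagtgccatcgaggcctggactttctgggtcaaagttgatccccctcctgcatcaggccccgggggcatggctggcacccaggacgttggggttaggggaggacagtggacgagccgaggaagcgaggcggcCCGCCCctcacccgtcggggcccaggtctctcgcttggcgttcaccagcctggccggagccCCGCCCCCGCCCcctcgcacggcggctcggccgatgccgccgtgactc

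The Acacb window lies inside the annotated span of its gene, at a downstream start, and holds 1 CCAAT box 87 bases before that start. The Me1 window holds 3 GC boxes, 109, 48 and 42 bases before the start. Of all 32851 RefSeq mouse promoter windows of this length, 33.8% held a CCAAT box and 32.7% a GC box, so both are common. The 4 genes had 5 windows in the table, and CCAAT boxes were also in the Mlycd window (3 of them) and in the second Me1 window (1). The only Acaca window and the second Me1 window also lie inside the annotated spans of their genes. The bases before the outermost starts of Acaca and Acacb were thus not searched. Neither the E-box CACGTG (6.02% of all windows), nor the antioxidant response element core TGACNNNGC (10.2%), nor the nuclear receptor core motif AGGTCA (14%) was found in any of the 5 windows on either strand. The same held for the direct repeat of that core with 1 base between (0.0335%), which contains it, and for the D-box (0.819%). These are matches of letters within short windows and show nothing about which factors bind.

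Acacb, the mitochondrial carboxylase gene, was lower on the ketogenic diet in liver and higher in intestine. In liver its intensity ran from 716 through a median of 1950 to 2835 on the 18 chow arrays, and from 407 through 523 to 696 on the 18 ketogenic arrays. No ketogenic liver array reached the lowest chow array. In intestine it ran from 37.4 through 61.5 to 108 on chow and from 162 through 430 to 566 on the ketogenic diet, and here every ketogenic array lay above every chow array. On the log2 scale, after adding a pseudocount of 16 to each intensity, the difference between diets was -1.75 ± 0.10 (SE, n = 18 per diet) in liver, 3.36-fold lower. It was 2.24 ± 0.07 in intestine, 4.71-fold higher on a scale that understates the change because chow values were low, and 2.49 with a pseudocount of 1. Without the 3 intestine arrays that stood apart the intestine difference was 2.23, and without the 2 liver arrays the liver difference was -1.74.

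Me1, the NADPH-forming malic enzyme gene, followed Acacb in both tissues. Its liver intensity was 2428, 4260 and 6074 (lowest, median and highest) on chow and 1684, 2214 and 3008 on the ketogenic diet, and these ranges overlapped. In intestine it was 110, 180 and 243 on chow and 397, 728 and 1523 on the ketogenic diet, with no overlap. The difference was -0.94 ± 0.08 in liver (1.92-fold lower) and 1.94 ± 0.10 in intestine (3.83-fold higher). Leaving out the arrays that stood apart gave -0.96 and 1.86. All 18 ketogenic arrays lay below the chow mean of the same time in liver and all 18 above it in intestine, for Acacb and for Me1. The share of all genes whose arrays separate in such ways, over the day or at single times, is not given here. Statements on overlap therefore only describe the 4 genes. A second probe set of Me1 gave -0.94 ± 0.08 and 1.94 ± 0.11.

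The other carboxylase gene, Acaca, was lower in liver without the rise in intestine. Its liver intensity was 1508, 2820 and 3959 on chow and 855, 1020 and 1231 on the ketogenic diet, with no overlap. The intestine ranges, 412, 645 and 735 on chow and 373, 528 and 611 on the ketogenic diet, overlapped widely. The differences were -1.43 ± 0.07 in liver (2.70-fold lower) and -0.23 ± 0.05 in intestine (1.17-fold lower), and a second probe set gave -1.52 ± 0.08 and -0.29 ± 0.07. Leaving out the arrays that stood apart gave -1.43 and -0.19.

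Mlycd, the decarboxylase gene, had diet ranges that overlapped in both tissues. Its intensity was 398, 557 and 665 on chow against 446, 533 and 641 on the ketogenic diet in liver, and 152, 191 and 222 against 159, 204 and 259 in intestine. The difference was -0.01 ± 0.05 in liver and 0.09 ± 0.04 in intestine, where 15 of 18 ketogenic arrays lay above the chow mean. Leaving out the 2 liver arrays gave -0.05, and leaving out the 3 intestine arrays gave 0.04.

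**Figure D1:**
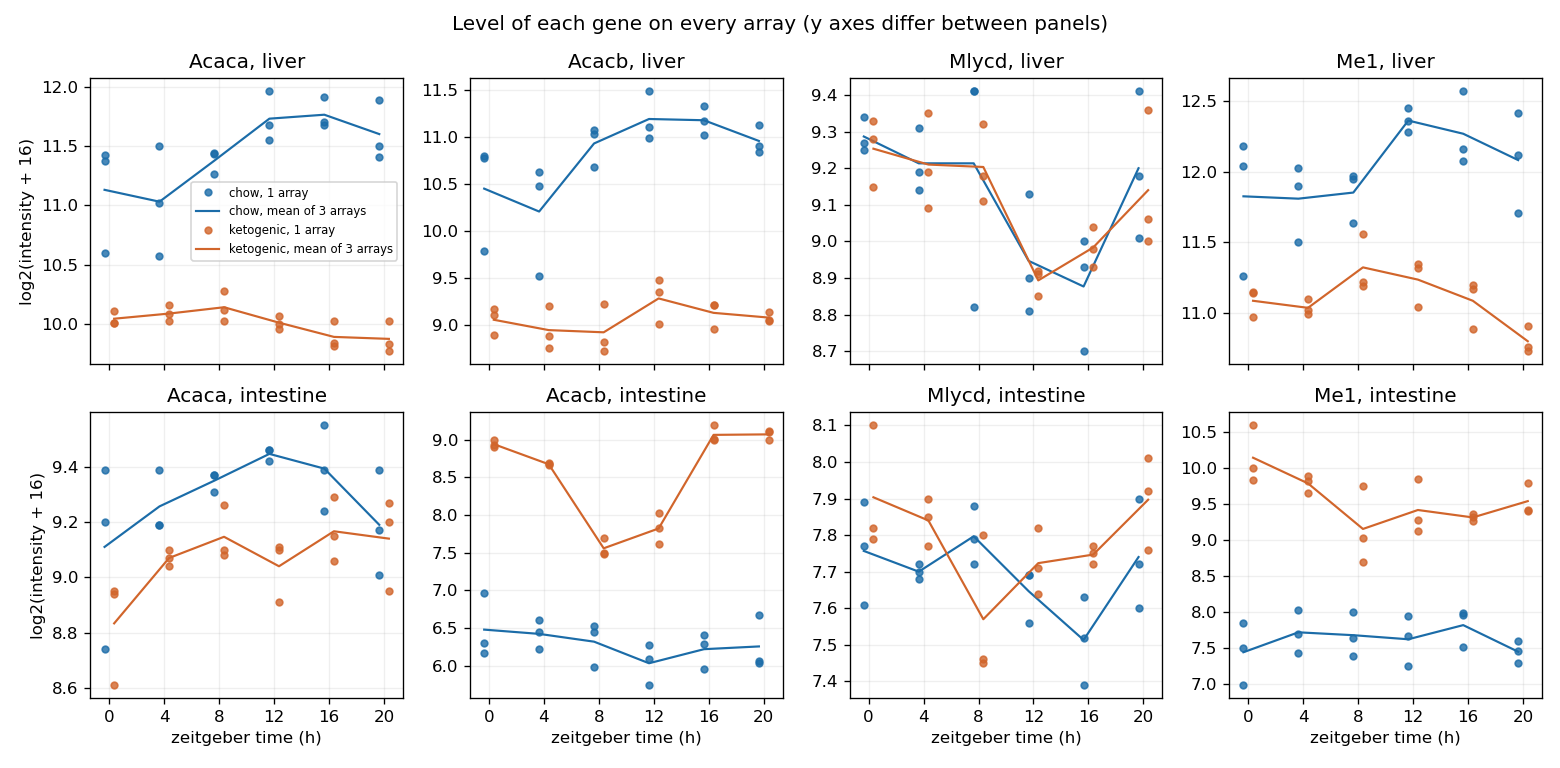
Level of Acaca, Acacb, Mlycd and Me1 on each of the 72 arrays, as log2(intensity + 16) against zeitgeber time in hours, with liver in the upper row and intestine in the lower row, points for single arrays and lines for the means of 3. Ketogenic points of Acacb lie below chow in liver (407 to 696 against 716 to 2835 in intensity) and above chow in intestine (162 to 566 against 37.4 to 108).

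As background, limma called 48.3% of 12463 genes for diet in liver (19.3% higher and 29% lower on the ketogenic diet) and 50.9% in intestine (19.7% higher and 31.2% lower). Called here means a Benjamini-Hochberg adjusted p under 0.05. Across 10871 genes tested in both tissues, 254 (2.34%) were called lower in liver and higher in intestine, against 1348 lower in both and 920 higher in both. Adding a minimum of 1.5-fold in each tissue, a limit set after the values were seen, left 2 genes, Acacb and Me1, while 7 genes passed it in the opposite sense. Those 7 were Aldoc and the interferon-response genes Ddx60, Herc6, Ifit1, Ifit3, Rsad2 and Rtp4. The 2 genes were picked for this pattern, so the count describes them and is no test.

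The size of the Acacb difference varied with the hour. In ketogenic intestine the 3 arrays read 492, 463 and 472 at ZT0 and 392, 388 and 397 at ZT4. They fell to 164, 162 and 192 at ZT8 and 180, 245 and 210 at ZT12. At ZT16 they read 493, 566 and 499, and at ZT20 they read 531, 492 and 542. Every array at ZT8 and ZT12 lay below every array of the other 4 times. On chow the intestine means at the same times were 75.8, 70.1, 64.6, 50, 59 and 61.9, with no such trough. Ketogenic Acacb was thus 2.37-fold above chow at ZT8 and 7.19-fold above it at ZT16, and at all 6 times the 3 ketogenic arrays lay above the 3 chow arrays. In liver the fold below chow ran from 2.39 at ZT4 to 4.14 at ZT16, again without overlap at any time.

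Me1 in ketogenic intestine was highest at ZT0, where the 3 arrays read 1523, 1006 and 896. They read 887, 928 and 787 at ZT4, then 503, 397 and 841 at ZT8 and 600, 541 and 906 at ZT12. At ZT16 they were 621, 643 and 597, and at ZT20 they were 669, 657 and 866. The highest array at ZT0, replicate 1, and the highest at ZT8, replicate 26, are among the 3 that stood apart. The fold above chow ran from 2.78 at ZT8 to 6.52 at ZT0. In liver Me1 was lower on the ketogenic diet at every time without overlap, from 1.44-fold at ZT8 to 2.43-fold at ZT20, although its ranges over the whole day overlapped. On the second Me1 probe set the liver arrays did overlap at ZT8. There the highest ketogenic array read 2822 and the lowest chow array, replicate 12, whose clock time stood apart, read 2805. Acaca in liver was lower by 1.93-fold at ZT4 to 3.67-fold at ZT16.

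**Figure D2:**
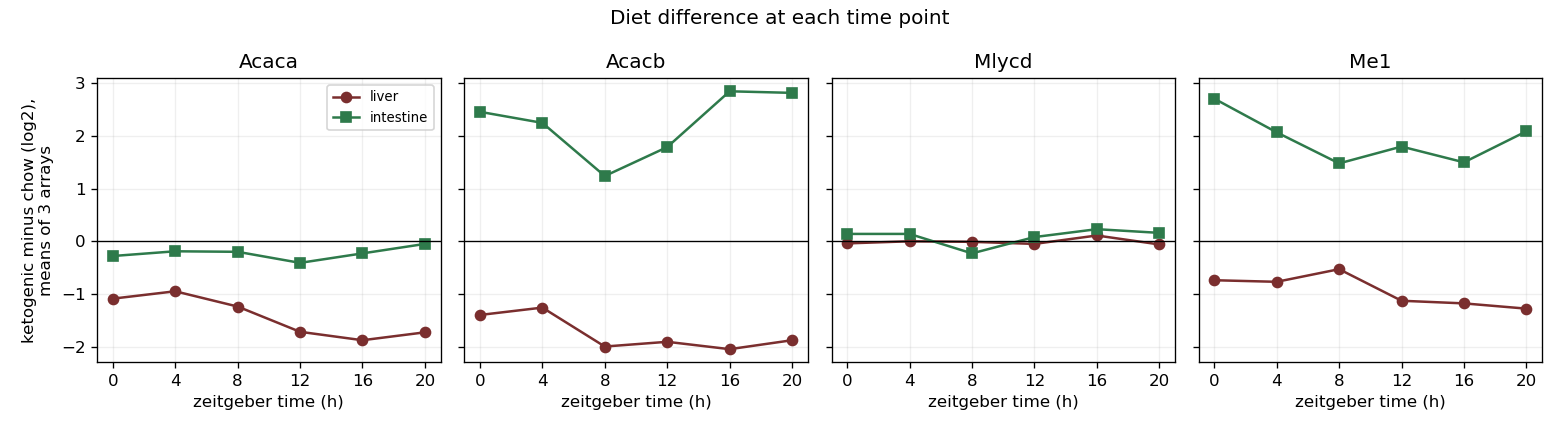
Ketogenic minus chow difference in log2(intensity + 16) at each zeitgeber time (hours), for the 4 genes in liver (circles) and intestine (squares), each point a difference between 2 means of 3 arrays. Acacb in intestine falls from 2.46 at ZT0 to 1.24 at ZT8 and reaches 2.85 at ZT16, while its liver points stay between -2.05 and -1.26.

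Rhythms were tested with a cosinor, a cosine and a sine of 24 h period fitted within each diet, and with limma's moderated F test. The fitted amplitude, in log2 units, is the distance from mean to peak. The rhythm terms are separate from the diet means on which the genes were chosen. Acacb, however, entered the intestine tests only through its ketogenic level, and its chow rhythm there is fitted to values below the filter's threshold, so its p-values are also given with no filter. In intestine the rhythm of Acacb on the ketogenic diet had an amplitude of 0.79 ± 0.09 and a peak at ZT21.0 (limma adjusted p = 2.4e-07, 4.2e-07 with no filter and 3.3e-06 without the 3 arrays that stood apart). On chow the amplitude was 0.19 ± 0.09 (adjusted p = 0.35), and the rhythms differed between diets (adjusted p = 0.017, 0.0271 with no filter and 0.012 without the 3 arrays). That call was lost with a pseudocount of 1 (0.064), and when chow ZT8 replicate 12 (0.0657), chow ZT20 replicate 31 (0.0673) or ketogenic ZT8 replicate 24 (0.0645) was left out. Over all 12463 intestine genes a rhythm was called for 8.87% under chow and for 14.6% under the ketogenic diet, and 0.0401% differed in rhythm between diets.

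Those last were 5 genes, with Dhcr7, which encodes the final reductase of cholesterol synthesis, Mgll, which encodes monoacylglycerol lipase, Pxmp4, which encodes a peroxisomal membrane protein, and BC018473 beside Acacb. Mgll and Pxmp4 had ketogenic amplitudes of 0.60 and 0.47 with peaks at ZT20.7 and ZT20.9, and amplitudes of 0.14 and 0.10 on chow. BC018473 went from 0.21 on chow to 0.70, and Dhcr7 from 0.24 to 0.08. In the authors' deposited table, whose p-values come from their own JTK_CYCLE runs, the Acacb rhythm in intestine had an adjusted p-value of 0.0122 on the ketogenic diet and 1 on chow. Their BIO_CYCLE runs in the authors' deposited table gave it adjusted p-values of 0.466 and 0.286.

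Me1 was called rhythmic in ketogenic intestine with an amplitude of 0.39 ± 0.10 and a peak at ZT0.3 (limma adjusted p = 0.0263, and 0.049 without the 3 arrays). On chow its amplitude was 0.12 ± 0.10 (adjusted p = 0.739), and the difference between the diets' rhythms did not pass (adjusted p = 0.479). The ketogenic call was lost without ZT0 replicate 1 (0.0983), ZT0 replicate 2 (0.0536) or ZT12 replicate 12 (0.0531). The authors' deposited table gave Me1 in ketogenic intestine an adjusted JTK_CYCLE p-value of 0.24, and Mlycd 0.395. In the cosinor, Mlycd in ketogenic intestine had an amplitude of 0.15 ± 0.04 and a peak at ZT22.2 (adjusted p = 0.036). Its call was lost without the 3 arrays (0.115) and without any 1 of 6 single arrays, with values up to 0.0996. Acaca was not called in intestine on either diet, with amplitudes of 0.16 ± 0.05 on chow (adjusted p = 0.0913) and 0.09 ± 0.05 on the ketogenic diet (adjusted p = 0.419), though its chow rhythm passed without the 3 arrays (0.0384).

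In liver each of the 4 genes had its larger fitted amplitude on chow, but the rhythm difference between diets was called only for Acaca. The share of all genes with the larger amplitude on chow is not given here. Acaca had an amplitude of 0.40 ± 0.07 and a peak at ZT14.9 on chow (limma adjusted p = 1.7e-04) and an amplitude of 0.13 ± 0.07 on the ketogenic diet (adjusted p = 0.24). Its rhythm differed between diets (adjusted p = 0.0111, and 0.0206 without the 2 liver chow arrays), but not in the test of a diet by time point interaction (0.163). For its second probe set, the authors' deposited table gave adjusted JTK_CYCLE p-values of 0.0112 on the ketogenic diet and 0.0779 on chow. Acacb had an amplitude of 0.50 ± 0.09 and a peak at ZT14.4 on chow (adjusted p = 5.7e-04) and 0.13 ± 0.09 on the ketogenic diet (adjusted p = 0.516), but its difference between diets did not pass (adjusted p = 0.211). Me1 peaked at ZT14.8 on chow with an amplitude of 0.29 ± 0.07 (adjusted p = 0.0132) and had an amplitude of 0.20 ± 0.07 on the ketogenic diet (adjusted p = 0.0776), with a difference that did not pass (adjusted p = 0.143). Without chow ZT0 replicate 22, the ketogenic rhythm of Me1 passed (0.0426). In liver a rhythm was called for 17.6% of genes under chow and 36.5% under the ketogenic diet, and a difference for 1.19%.

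The chow liver values show where these rhythms lie. Acacb read 1754, 862 and 1727 at ZT0 and 1400, 716 and 1556 at ZT4, against 2000, 2184 and 2835 at ZT12 and 2289, 2057 and 2560 at ZT16. Acaca read 2728, 1534 and 2636 at ZT0 against 3268, 3302 and 3844 at ZT16. The low array at ZT0 (replicate 22) and the low array at ZT4 (replicate 6) were the lowest of their groups for Acaca, Acacb and Me1 alike. Leaving out either one, or any other single liver array, kept the chow rhythms of these 3 genes called, with adjusted p up to 9.8e-04 for Acaca, 0.00227 for Acacb and 0.0436 for Me1. Without the 2 chow arrays whose clock time stood apart, their adjusted p was 3.5e-04, 7.9e-04 and 0.0195. The Me1 call was lost in the test over the 6 time points (0.0926).

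Mlycd kept a low rhythm of its own in liver on each diet. Its amplitude was 0.20 ± 0.05 with a peak at ZT2.1 on chow (limma adjusted p = 0.0167) and 0.17 ± 0.05 with a peak at ZT2.0 on the ketogenic diet (adjusted p = 0.0247), far from the ZT14.4 to ZT14.9 peaks of the other 3 genes on chow. The rhythms of Mlycd did not pass a test of difference between diets (adjusted p = 0.971). Without the 2 chow arrays the values were 0.0168 and 0.0167. Both calls were lost in the test over the 6 time points (0.0809 and 0.117), the chow call with median centring (0.0888), and the ketogenic call without ZT12 replicate 12 (0.0577) or ZT4 replicate 4 (0.0547). The authors' deposited table gave Mlycd in liver an adjusted JTK_CYCLE p-value of 0.043 on the ketogenic diet and 0.654 on chow. It gave Acacb 1 and 0.0316, Acaca 0.0693 and 0.0629, and Me1 0.043 and 0.43, in the same order, again from the authors' deposited table. The BIO_CYCLE runs in the authors' deposited table gave no adjusted p-value under 0.05 for these genes in liver. On chow they gave 0.097 for Acaca, 0.301 for Acacb, 0.428 for Mlycd and 0.324 for Me1. On the ketogenic diet they gave 0.176, 0.421, 0.265 and 0.334, in that order.

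Averaged over diets, the rhythm differed between liver and intestine for Acacb (limma adjusted p = 2.3e-06, and 3.9e-06 with no filter) and for Me1 (adjusted p = 0.0204). It did not pass for Acaca (adjusted p = 0.724) or Mlycd (adjusted p = 0.174). Acacb entered this test too only through its ketogenic level in intestine. Of 10871 genes, 23.2% were called in that test. Both calls held without the 3 intestine arrays (3.0e-06 and 0.0279) and without the 2 liver arrays (5.5e-06 and 0.0198).

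All 4 genes were higher in liver than in intestine when the diets were averaged, a comparison in which 89% of 10871 genes were called with 44.4% higher in liver and 44.7% higher in intestine. The log2 difference was 2.98 ± 0.06 for Me1 (7.89-fold, limma adjusted p = 2.5e-44, n = 36 per tissue) and 2.54 ± 0.06 for Acacb (5.81-fold, adjusted p = 4.3e-42). It was 1.54 ± 0.04 for Acaca (2.92-fold, adjusted p = 6.9e-38) and 1.38 ± 0.03 for Mlycd (2.61-fold, adjusted p = 2.3e-42). Acacb entered this comparison only through its ketogenic level in intestine, since its chow mean there lay below the filter's threshold. In these bulk tissues fewer cells of a type and less RNA per cell cannot be told apart.

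The gap between the tissues was very unequal on the diets, which is the choice of the genes seen from the other side and so is only described. On the log2(intensity + 16) scale Acacb on chow stood 23.1-fold higher in liver than in intestine (mean log2 10.81 against 6.28, the latter below the filter's threshold, so that the pseudocount holds the fold down) and on the ketogenic diet 1.46-fold (9.07 against 8.52). For Me1 the gap was 21.4-fold on chow (12.03 against 7.62) and 2.91-fold on the ketogenic diet (11.10 against 9.56). Acaca went from 4.43-fold to 1.92-fold through its liver values, and Mlycd stayed at 2.70-fold and 2.52-fold. At ZT20 on the ketogenic diet the gap of Acacb was 0.01 on the log2 scale, with liver arrays at 510, 550 and 515 and intestine arrays at 531, 492 and 542, which overlap. At ZT8 it was 1.37, with liver at 435, 582 and 407 and intestine at 164, 162 and 192.

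**Figure D3:**
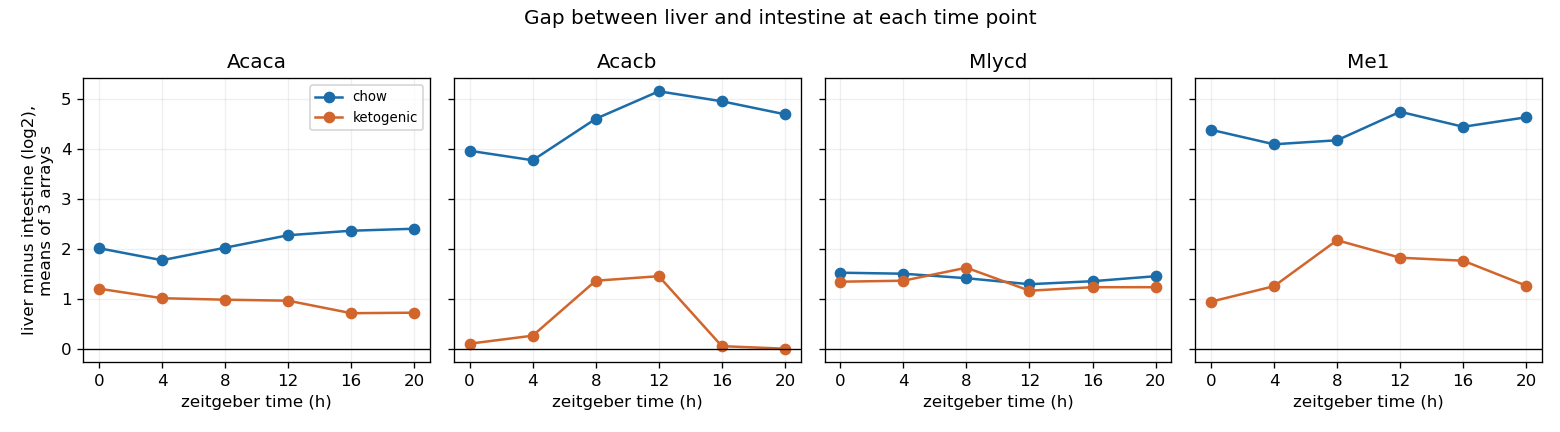
Liver minus intestine difference in log2(intensity + 16) at each zeitgeber time (hours) on chow and on the ketogenic diet, each point a difference between 2 means of 3 arrays. The ketogenic points of Acacb and Me1 lie below their chow points at all 6 times, with means over the day of 0.55 against 4.53 for Acacb and 1.54 against 4.42 for Me1.

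Genes of other cell types were measured beside the intestine rises. Over all genes, 19.7% rose and 31.2% fell on the ketogenic diet in intestine, and 19.3% rose and 29% fell in liver. Adipocyte markers summed to 2019 to 3167 on chow and 1890 to 4524 on the ketogenic diet, 1 of 4 tested rose (Cidec, 0.66 on the log2 scale, limma adjusted p = 1.1e-05), and Adipoq, which defines fat cells, lay between 31.6 and 57.4 on all intestine arrays. Hepatocyte markers summed to 4377 to 12923 on chow and 4454 to 9716 on the ketogenic diet, and 2 of 4 tested rose. These were Alb, the albumin gene, by 1.22 (adjusted p = 0.0248) and Tat, tyrosine aminotransferase, by 0.63 (adjusted p = 0.0012). Alb ranged from 0.0174 to 6010 on chow and from 24.7 to 3040 on the ketogenic diet, with medians of 64.6 and 149 against 13400 in ketogenic liver, and none of the 6 hepatocyte markers was below 16 on all arrays. Of 4 tested skeletal muscle markers 3 rose, each by 0.19, with sums of 912 to 1096 on chow and 918 to 1228 on the ketogenic diet. Of 8 enterocyte markers in intestine 1 rose (Apoa4, 0.52) and 3 fell (Sis by 0.39 on the log2 scale, Cdx2 by 0.13 and Vil1 by 0.07). Of 5 goblet and Paneth cell markers 1 fell (Tff3, by 0.12), of 2 tested macrophage markers 1 fell (Cd68, by 0.28), and of 2 tested T cell markers 1 fell (Cd8a, by 0.21). The 1 tested acinar marker, Cela1, rose by 0.12. The part of these cell types in the Acacb and Me1 differences was not tested. In liver 5 of 6 tested adipocyte markers rose and 1 fell, with sums of 1644 to 4379 on chow and 2107 to 5246 on the ketogenic diet, while 1 of 6 hepatocyte markers fell (Cps1, by 0.07 on the log2 scale). Fabp2, an enterocyte marker, rose by 0.57 in liver, and Tff3, a goblet cell marker, fell by 3.34 on the log2 scale there.

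The rest of the pathway was followed in 7 lists of 95 genes, which leave out the 4 genes themselves. In liver 84 were tested, of which 25 rose and 33 fell on the ketogenic diet (69% called, against 48.3% of all genes). Their median difference was -0.02 against -0.03 for all genes. With quantile normalization the liver split was 30 and 30. In intestine 85 were tested, of which 14 rose and 31 fell (52.9% called, against 50.9% of all genes). Their median was -0.03 against -0.02 for all genes. The intestine split was 9 and 36 when each array was centred on its median. The diet difference itself differed between tissues for 47 of 79 list genes, 59.5% against 31.7% of all genes. In 26 the liver difference was the higher and in 21 the lower.

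In the list of malonyl-CoA users, 3 of 9 genes tested in liver rose and 3 fell (66.7% called, against 48.3% of all genes). The list and its counts also hold Acsf3, whose product makes malonyl-CoA and does not use it. Elovl6, an elongase of palmitate, was 3.05-fold lower (-1.61 ± 0.07, limma adjusted p = 4.8e-17, n = 18 per diet). Fasn, fatty acid synthase, was 2.48-fold lower (-1.31 ± 0.09, adjusted p = 2.0e-12). Acsf3, which encodes the malonyl-CoA synthetase of mitochondria, rose by 0.36 ± 0.04 (adjusted p = 5.6e-09). In intestine 2 of 8 rose and 1 fell (37.5% called, against 50.9% of all genes). Elovl6 differed by 0.10 ± 0.06 (adjusted p = 0.173) and Fasn by -0.05 ± 0.06 (adjusted p = 0.459), neither past the threshold, while Elovl5, an elongase of polyunsaturated fatty acids, fell by 0.66 on the log2 scale (adjusted p = 4.2e-12). Elovl1 and Elovl7 were the 2 that rose, by 0.18 and 0.12. The liver and intestine differences of Fasn and Elovl6 differed from each other (adjusted p = 1.1e-13 and 7.0e-22).

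Among the genes that bring acetyl-CoA to the cytosol, 5 of 13 rose in liver and 6 fell (84.6% called, against 48.3% of all genes). In intestine 1 of 15 rose and 10 fell (73.3% called, against 50.9% of all genes). Acly, which splits citrate into acetyl-CoA and oxaloacetate, fell 2.46-fold in liver (-1.30 ± 0.10, limma adjusted p = 4.3e-11) and by 0.15 on the log2 scale in intestine (adjusted p = 0.0153). Slc25a1, the citrate carrier, differed by -0.06 ± 0.04 in liver and -0.01 ± 0.03 in intestine, neither past the threshold. In liver Cs, citrate synthase, and Slc25a12, an aspartate-glutamate carrier, each differed by -0.31 and were called. In intestine the mitochondrial malic enzyme gene Me3 fell by 0.49 on the log2 scale, Acss2, which makes acetyl-CoA from acetate, by 0.41, and Mdh1, cytosolic malate dehydrogenase, by 0.27. The other mitochondrial malic enzyme gene, Me2, named after its value was seen, differed by -0.18 ± 0.04 in intestine (adjusted p = 2.4e-04), and neither Me2 nor Me3 passed the filter in liver. Of the 3 malic enzyme genes, then, Me1 was higher on the ketogenic diet in intestine and the other two were lower.

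Of 13 other genes of NADPH supply tested in liver 4 rose and 4 fell (61.5% called, against 48.3% of all genes). G6pdx, the first enzyme of the pentose phosphate pathway, was 2.62-fold lower (-1.39 ± 0.11, limma adjusted p = 6.9e-11). Pgd, a later enzyme of that pathway, was 1.67-fold lower (-0.74 ± 0.08, adjusted p = 1.9e-08). Idh2, mitochondrial isocitrate dehydrogenase, rose by 0.45 ± 0.03 (adjusted p = 1.3e-11). In intestine 3 of 13 rose and 4 fell (53.8% called, against 50.9% of all genes), with G6pdx at -0.17 ± 0.03 (adjusted p = 2.1e-04) and Pgd at 0.03 ± 0.03 (adjusted p = 0.455). The largest rise there was that of H6pd, the pentose phosphate enzyme of the endoplasmic reticulum, at 0.27 ± 0.06 (adjusted p = 3.4e-04), beside 1.94 for Me1. Aldh1l1, a folate enzyme that forms NADPH, fell by 0.55 on the log2 scale in intestine (adjusted p = 7.2e-11).

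Of the carnitine system that malonyl-CoA restrains, 5 of 7 tested genes rose and 2 fell in liver, where 19.3% of all genes rose, and 4 of 6 rose and 1 fell in intestine, where 19.7% of all genes rose. The list's median difference was 0.31 in liver and 0.25 in intestine. Cpt1a, the inhibited enzyme itself, rose by 0.27 ± 0.05 in liver (limma adjusted p = 8.8e-05) and 0.44 ± 0.04 in intestine (adjusted p = 1.6e-09). Slc25a20, the carnitine-acylcarnitine carrier, rose by 0.42 and 0.55, and Cpt2, the inner membrane transferase, by 0.37 and 0.33. Acsl1, which activates long-chain fatty acids, rose by 0.31 in liver and fell by 0.22 on the log2 scale in intestine. In intestine Acacb and Cpt1a were thus both higher on the ketogenic diet, and in liver Acacb was lower and Cpt1a higher.

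Of the genes that act on the carboxylase proteins, 1 of 14 rose and 7 fell in liver (57.1% called, against 48.3% of all genes). In intestine none rose (0 at an unadjusted p under 0.05, in the same limma test) and 3 fell (21.4% called, against 50.9% of all genes). Mid1ip1 encodes a protein that promotes polymerisation of acetyl-CoA carboxylase, and Thrsp encodes a partner of that protein. In liver Thrsp fell 2.84-fold (-1.51 ± 0.15, limma adjusted p = 4.5e-09) and Mid1ip1 fell 1.57-fold (-0.65 ± 0.10, adjusted p = 8.2e-06). In intestine Mid1ip1 differed by -0.13 ± 0.04 (adjusted p = 0.00369), and Thrsp did not pass the filter. Prkaa1 and Prkaa2 encode the catalytic subunits of AMP-activated protein kinase, which inhibits both carboxylases. Prkaa2 differed by -0.31 ± 0.04 in liver (adjusted p = 8.6e-08) and -0.03 ± 0.04 in intestine, and Prkaa1 by 0.02 ± 0.02 and, called in intestine, -0.09 ± 0.04 (adjusted p = 0.0369). Its regulatory subunit gene Prkag2 fell by 0.58 on the log2 scale in intestine (adjusted p = 3.8e-09). Btd, the biotin-recycling enzyme, differed by -0.30 in liver (adjusted p = 1.2e-06).

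Of 20 transcription regulators that act on these genes, 2 rose and 11 fell in liver (65% called, against 48.3% of all genes) and 2 rose and 9 fell in intestine (55% called, against 50.9% of all genes). Falls also outnumbered rises over all genes, and the list's median difference was -0.08 in liver and -0.13 in intestine. Srebf1, a master regulator of lipogenic genes, fell in liver (-0.66 ± 0.09, limma adjusted p = 4.7e-07) and differed by -0.07 ± 0.08 in intestine (adjusted p = 0.454). Mlxipl, the carbohydrate response factor, fell in both (-0.35 ± 0.04 and -0.27 ± 0.04). Ppara, the fatty acid receptor, rose in liver (0.18 ± 0.05, adjusted p = 0.00166) and fell in intestine (-0.20 ± 0.05, adjusted p = 0.00276), and that difference between tissues was called (adjusted p = 2.1e-05). Pparg rose by 0.73 ± 0.13 in liver. Ppargc1a, a coactivator, fell by 0.89 on the log2 scale in intestine, and its relative Ppargc1b rose by 0.26.

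Nfe2l2 encodes NRF2, under whose control Me1 is known to stand, and it differed by -0.15 ± 0.05 in liver (limma adjusted p = 0.0214) and -0.13 ± 0.03 in intestine (adjusted p = 7.8e-04). Of its targets listed apart from NADPH supply, 5 of 8 rose and none fell in liver (0 at an unadjusted p under 0.05, in the same limma test). That was 62.5% called, against 48.3% of all genes. In intestine 2 of 9 rose and 3 fell (55.6% called, against 50.9% of all genes). The genes of NADPH supply described above, of which 4 rose and 4 fell in liver, are not counted here. Gsta4, a glutathione transferase, rose by 0.51 ± 0.07 in liver and fell by 0.46 on the log2 scale in intestine. Abcc3, a bile salt exporter, rose by 0.98 ± 0.10 and 0.56 ± 0.05. Gclc, the catalytic subunit of glutamate-cysteine ligase, fell by 0.32 on the log2 scale in intestine (adjusted p = 2.7e-06), and Gsr, glutathione reductase, rose in liver by 0.18 (adjusted p = 2.2e-06).

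**Figure D4:**
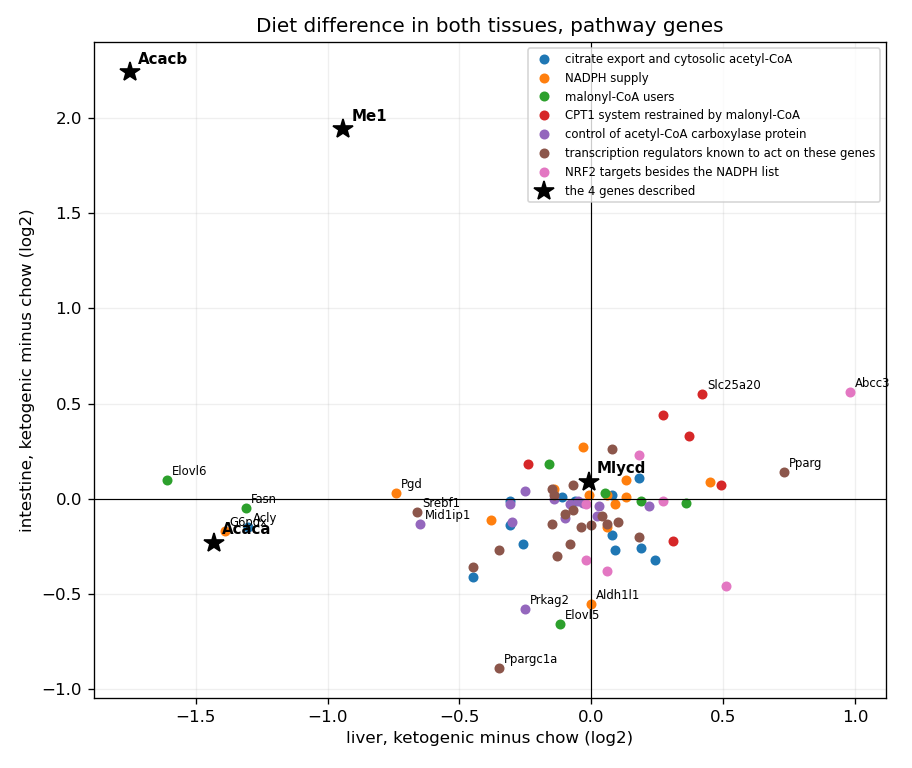
Ketogenic minus chow difference in log2(intensity + 16) in liver (horizontal) and intestine (vertical) for the pathway genes tested in both tissues (coloured by list) and for Acaca, Acacb, Mlycd and Me1 (stars), each from 18 arrays per diet and tissue. Acacb (-1.75 and 2.24) and Me1 (-0.94 and 1.94) lie at the upper left, and Acaca (-1.43 and -0.23) lies beside Fasn (-1.31 and -0.05) and Acly (-1.30 and -0.15).

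Rhythm differences between diets were called for 4 of 84 list genes in liver and for none of 85 in intestine (19 at an unadjusted p under 0.05, in the same limma test). Over all genes the shares called were 1.19% in liver and 0.0401% in intestine. The 4 list genes were Acly, Elovl6, Fasn and Mid1ip1. Their chow peaks lay between ZT13.7 and ZT14.4, near the ZT14.9 of Acaca, and their ketogenic peaks between ZT5.1 and ZT6.0, where that of Acaca was ZT6.0. Acaca had no called rhythm in ketogenic liver (amplitude 0.13 ± 0.07, limma adjusted p = 0.24), so its fitted peak there is uncertain. Peaks fitted at low ketogenic amplitudes are uncertain too. The amplitude went from 0.69 on chow to 0.13 for Acly (limma adjusted p = 0.00906) and from 0.47 to 0.06 for Elovl6 (adjusted p = 0.00906). For Fasn it went from 0.42 to 0.25 (adjusted p = 0.0248). For Mid1ip1 it was 0.37 and 0.36 (adjusted p = 0.0365), so that its peak moved with nearly the same amplitude.

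The genes with the most similar pattern were found by Pearson correlation over the 24 group means, each tissue centred on its own mean, across the 10871 genes. This likeness is a description. The 24 points share the 2 diets, so any gene with a similar diet difference scores high. Acacb and Me1 had each other as nearest gene (r = 0.93). Next came Mif, a cytokine gene, and Banf1, a chromatin protein gene, for Acacb (0.91 and 0.88). For Me1 they were Mif (0.88) and Bin1, a membrane-shaping protein gene (0.90). The diet differences of these genes were much smaller. Mif had -0.31 in liver and 0.46 in intestine, and Bin1 had -0.30 and 0.57. Acaca was nearest to Fasn, Enpep, an aminopeptidase gene, and Acly (each 0.97), and its correlation with Acacb was 0.46. Mlycd had no gene above 0.76 (Taf6l), followed by Irf3 and Tbrg1 at 0.75, and its correlations with the other 3 genes ran from -0.16 to 0.21.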

How the data were processed

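RNA levels were read with Affymetrix mouse gene arrays. The authors deposited a linear intensity for each probe set on each array, and the submitters' processing notes name PLIER and Affymetrix Expression Console 1.1.1. Background and normalization settings are not given in the sources used here. A deposited workbook adds group means, each equal to the mean of its 3 arrays within a relative 0.0001, and the authors' p-values from JTK_CYCLE and BIO_CYCLE.

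Of 35556 probe sets 23163 could be named, 1374 of them from the workbook. Values were taken as log2(intensity + 16), and 7.81% of intensities lay below 16. The probe set with the highest mean stood for each gene, and genes below the 40th percentile were left out. limma 3.58.1 in R 4.3.3 fitted group means and a 24 h cosinor, with two-sided tests and Benjamini-Hochberg adjustment over all genes tested. Figures used Python 3.11.15 and matplotlib 3.10.9. The tests were tested on simulated data. No counts exist for arrays, so their number limits the precision.

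Groups came from the array titles. The labels do not say whether liver and intestine arrays of equal number share an animal. Their median residual correlation was 0.02 over 22 pairs of equal number and -0.01 over 86 others. This cannot decide it, since different tissues of the same animal need not correlate. The main tests did not use the numbers as pairs. The genes, the lists and the rules were chosen with earlier results of these data known. Named were the 4 genes, the 3 list genes with the smallest adjusted p per list and tissue, 14 list genes always, and the 3 nearest genes of each of the 4. A further gene was named where the text says so or where a small count called for it. Promoters are RefSeq's. Alternatives were another pseudocount, 2 normalizations, no filter and a stricter one, another variance model, all probe sets, a test over the 6 time points, a replicate block, and arrays left out.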

Additional observations from a re-analysis of the deposited data

Results flagged for a closer look

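Several results differed between the groups compared. In liver Acacb was lower on the ketogenic diet by a log2 difference of -1.75 and in intestine higher by 2.24, with every array on its own side of the chow mean. Me1 showed the same opposition, -0.94 in liver and 1.94 in intestine. Neither difference between tissues was tested, since the genes were chosen for it.

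The rhythm of Acacb differed between liver and intestine with limma's adjusted p = 2.3e-06 (3.9e-06 with no filter), and that of Me1 with adjusted p = 0.0204. Acacb passed the intestine filter only through its ketogenic level. Within intestine the rhythm of Acacb differed between diets (limma adjusted p = 0.017), with fitted amplitudes of 0.19 (chow) and 0.79 (ketogenic). Its chow values lay below the filter's threshold. The adjusted p was 0.0271 with no filter and 0.064 with a pseudocount of 1. Within liver the rhythm of Acaca differed between diets (limma adjusted p = 0.0111), with fitted amplitudes of 0.40 (chow) and 0.13 (ketogenic), but did not pass as a diet by time point interaction (0.163). Its second probe set had adjusted JTK_CYCLE p-values of 0.0112 (ketogenic) and 0.0779 (chow) in the authors' deposited table. What causes these differences was not tested.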

How the results depend on the processing

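The diet differences and tissue levels of the 4 genes kept their direction under every alternative run except the liver difference of Mlycd, -0.01, whose sign is not settled (0.03 with quantile normalization). Pathway genes in liver split 25 higher to 33 lower, and 30 to 30 with quantile normalization. With a pseudocount of 1 the intestine difference of Acacb was 2.49 in place of 2.24, and its rhythm difference between diets no longer passed (adjusted p = 0.064). Median centring left 9 pathway genes higher in intestine, ended the Mlycd rhythm in chow liver (0.0888) and brought the Acaca rhythm in chow intestine past the threshold (0.0462). Without the filter the Mlycd rhythm in ketogenic intestine did not pass (0.0558). Testing any difference among the 6 time points in place of the cosinor ended 5 calls, which were the rhythms of Mlycd in chow liver (0.0809), ketogenic liver (0.117) and ketogenic intestine (0.081), of Me1 in chow liver (0.0926), and the Acaca rhythm difference in liver (0.163). Without the 3 intestine arrays that stood apart, the Mlycd rhythm in ketogenic intestine was lost (0.115) and the Acaca rhythm in chow intestine gained (0.0384). The cause was not tested.

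Leaving out each array in turn moved limma's adjusted p of the Acacb rhythm difference in intestine between 0.0117 and 0.0673, the Me1 rhythm in ketogenic intestine between 0.00414 and 0.0983, and the Me1 rhythm in ketogenic liver between 0.0426 and 0.197. It moved the Mlycd rhythm in ketogenic intestine between 0.0191 and 0.0996 and in ketogenic liver between 0.0157 and 0.0577, and the Acaca rhythm in chow intestine between 0.0383 and 0.313. No other call of the 4 genes changed. The 60th percentile filter gave no value for Acacb and Mlycd in intestine, where they fall below it. The title number as a replicate block changed no call or direction among the 45 results (rhythm difference of Acacb in intestine 0.0174, of Acaca in liver 0.0133). Within a tissue this block joined only a chow array with a ketogenic array of equal number. Those come from mice on different diets, so the unchanged calls within a tissue cannot show whether shared animals matter.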
